A study of Homo sapiens with 5 samples.

Results

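The regions described here were sites at which 4 chromatin immunoprecipitation sequencing (ChIP-seq) lists all placed a summit, the position of the highest signal within a peak. A site was a KAT7 summit from cells given ENO1-IT1 siRNA that had a summit at most 50 bp away in each of the other 3 lists, namely control siRNA KAT7, ENO1-IT1 siRNA H3K27ac and control siRNA H3K27ac. There were 1377 such sites among 24611 summits in the ENO1-IT1 siRNA KAT7 list and 209263 summits in the whole series. The sites were chosen by positions in these lists, so their presence in both conditions and their closeness are properties of the rule and are given as a description.

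The samples came from HCT116, a human colorectal cancer cell line, transfected for 48 h. The groups were KAT7 after ENO1-IT1 siRNA and after control siRNA, H3K27ac after ENO1-IT1 siRNA and after control siRNA, and input DNA, which was taken without antibody and whose label names no siRNA. Each group was 1 library, so differences between conditions describe these libraries only and no test was made. Intervals are exact Clopper-Pearson 95% intervals for shares and order-statistic 95% intervals for medians, and both cover counting error only. The groups follow the sample titles, and the lists hold no transcript levels with which the knockdown could be checked.

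KAT7, also called HBO1, is a histone acetyltransferase of the MYST family. It works in complexes built on BRPF or JADE scaffold proteins, acetylates histone H3 and H4 tails, and is known for its part in the licensing of replication origins. H3K27ac, acetylation of histone H3 at lysine 27, marks active promoters and enhancers and is laid down mainly by the acetyltransferases EP300 and CREBBP. ENO1-IT1 is a long noncoding transcript whose name marks it as intronic to ENO1, the gene for a glycolytic enolase, and the design asked how its knockdown bears on histone acetylation across the genome.

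Few KAT7 summits had a summit in all of the other lists, and agreement with the H3K27ac lists went together with agreement between the KAT7 lists. Of the 24611 ENO1-IT1 siRNA KAT7 summits, 26.3% had a control KAT7 summit within 50 bp, 11.1% an ENO1-IT1 siRNA H3K27ac summit and 9.65% a control H3K27ac summit. All 3 were present at the 1377 sites, which is 5.60% of that list (95% interval 5.31 to 5.89%). Of the 1644 KAT7 summits with both H3K27ac lists within 50 bp, 83.8% (81.9 to 85.5%) also had control KAT7. Of the 19160 KAT7 summits with no H3K27ac summit of either condition within 500 bp, 17.8% (17.3 to 18.3%) had control KAT7 within 50 bp. These groups were not matched for KAT7 score. With both H3K27ac lists within 50 bp the median score was 60.6 with control KAT7 and 29.1 without it. With neither H3K27ac list within 50 bp it was 9.48 with control KAT7 and 7.08 without it. The sites took 1.12% (1.07 to 1.19%) of the 122439 control KAT7 summits, 4.32% (4.10 to 4.55%) of the 31839 ENO1-IT1 siRNA H3K27ac summits and 4.68% (4.44 to 4.93%) of the 29429 control H3K27ac summits. The control KAT7 share depended on weak summits, and was 5.66% with scores of at least 5 in each list and 11.7% with scores of at least 10, then above the ENO1-IT1 siRNA KAT7 shares of 4.59% and 4.29%. Each of the 1377 sites used a different summit in every list.

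Each list was the single missing one at fewer positions than there were sites. Control H3K27ac was the missing list at 620 ENO1-IT1 siRNA KAT7 summits, ENO1-IT1 siRNA H3K27ac at 394 and control KAT7 at 267. At 106, 184 and 122 of these, in the same order, the missing list did hold a summit farther out, between 51 and 500 bp away. From the other side, 108 control KAT7 summits had both H3K27ac lists within 50 bp but no ENO1-IT1 siRNA KAT7 summit, and 66 of them had one farther out, within 500 bp. The limit of 50 bp did not fall at a break in the scores. The 71 sites whose largest distance was 41 to 50 bp had a median ENO1-IT1 siRNA KAT7 score of 51.3, and the 63 summits just outside, at 51 to 60 bp, had a median of 45.0. Of the 5 nearest outside, each with a largest distance of 51 bp, the one with the highest KAT7 score (73.5), on chromosome 11 at 1378055, missed because its ENO1-IT1 siRNA H3K27ac summit lay 51 bp away.

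The sites held most of the strongest KAT7 summits of the ENO1-IT1 siRNA list. The score deposited with each summit is a -log10 p or q value, which grows with sequencing depth, so scores serve to rank summits within a list, and equal scores in different lists do not mean equal enrichment. In the ENO1-IT1 siRNA KAT7 list, 0.318% of summits scoring under 5 were sites, 0.243% of those from 5 to 10 and 1.15% of those from 10 to 20. The share was 13.5% (12.3 to 14.8%) from 20 to 50. It was 67.1% (64.1 to 70.1%) of the 970 summits from 50 to 100, and 86.4% (81.8 to 90.3%) of the 273 scoring at least 100. Within the top 1000 by score, sites made up 77.1% (74.4 to 79.7%) of ENO1-IT1 siRNA KAT7 and 27.2% (24.5 to 30.1%) of control KAT7, and 22.5% (19.9 to 25.2%) of ENO1-IT1 siRNA H3K27ac and 25.7% (23.02 to 28.5%) of control H3K27ac. The lists differ in length, so these shares describe each list and not a change between conditions. Within the top 100 by score the shares were 87.0%, 61.0%, 61.0% and 64.0% in that order.

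**Figure D1:**
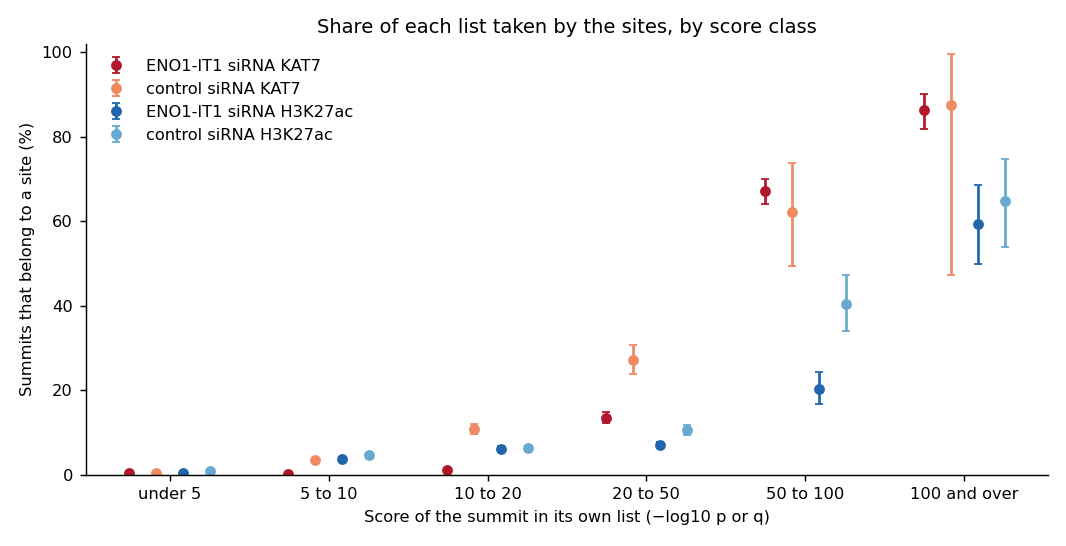
Share of the summits of each list that belong to one of the 1377 sites, by class of the summit's own score (-log10 p or q), with points for the 4 immunoprecipitated libraries and bars for exact 95% intervals. The share is under 1% below a score of 5 in each list and reaches 86.4%, 87.5%, 59.5% and 64.8% at scores of 100 and over for ENO1-IT1 siRNA KAT7, control KAT7, ENO1-IT1 siRNA H3K27ac and control H3K27ac; the lists share the class bounds but not a common scale.

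Within the H3K27ac lists the sites reached into the middle of the ranking. The percentile of a summit is its rank by score within its list, in percent of the list's length, with tied scores given their mean rank. The median site stood at percentile 96.5 of the ENO1-IT1 siRNA KAT7 list (quartiles 93.1 and 98.4) and at 94.8 of the control KAT7 list (81.7 and 98.8). It stood at percentile 74.5 of the ENO1-IT1 siRNA H3K27ac list (55.5 and 91.3) and at 75.6 of the control H3K27ac list (57.9 and 93.3). In the ENO1-IT1 siRNA KAT7 list, 1180 sites were among the highest-scored 10%, and in the control KAT7 list 891. In the ENO1-IT1 siRNA H3K27ac list 368 sites were among the highest-scored 10% and 251 lay below the list's median, and in the control H3K27ac list these numbers were 423 and 237. At 305 sites, 22.2% of all, the summits of all 4 lists were among the highest-scored 10%.

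Scores at the sites ranged widely in each list. The ENO1-IT1 siRNA KAT7 score ran from 2.33 to 188.3 with a median of 60.6, against a median of 7.67 over the whole list. The control KAT7 score ran from 1.31 to 113.4 with a median of 7.87, against 2.68 over the whole list. The ENO1-IT1 siRNA H3K27ac score ran from 2.22 to 727.4 with a median of 15.2, against 8.02 over the list, and the control H3K27ac score from 1.88 to 484.8 with a median of 12.3, against 7.14. The highest score of each of the 4 lists therefore belonged to a site. In the ENO1-IT1 siRNA KAT7 list the highest score, 188.3, was shared by 6 summits, each of them a site.

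Sites that were strong in one list tended to be strong in the others. Over the 1377 sites, Spearman's rho between ENO1-IT1 siRNA and control scores was 0.49 for KAT7 and 0.82 for H3K27ac. Between KAT7 and H3K27ac scores it was 0.70 after ENO1-IT1 siRNA and 0.50 after control siRNA. Without the 100 sites of highest ENO1-IT1 siRNA KAT7 score the 4 values were 0.39, 0.78, 0.63 and 0.40. These are descriptions across sites that share the same libraries, with many tied scores in the control KAT7 list, and sites are not replicates of a condition.

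The sites with the highest control KAT7 scores were strong in each list. On chromosome 19 the summits lay at 4247644 and 4247651 for KAT7 after ENO1-IT1 siRNA and control siRNA, and at 4247648 and 4247639 for H3K27ac, all within 12 bp. The KAT7 scores there were 188.3 after ENO1-IT1 siRNA and 113.4 after control siRNA, tied for the highest and the highest of their lists, and the H3K27ac scores were 255.4 and 211.7. On chromosome 10 the KAT7 summits were at 99438695 and 99438703, with scores of 185.7 and 113.4, and the H3K27ac summits at 99438705 and 99438701 scored 248.1 and 191.3. On chromosome 16 the KAT7 summits at 3899440 and 3899446 scored 185.7 and 109.0, and the H3K27ac summits at 3899430 and 3899447 scored 212.9 and 168.8. These sites were thus near the top of both KAT7 lists as well as both H3K27ac lists.

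Among the sites, those with the highest H3K27ac scores had no other H3K27ac summit of the same list within 2 kb. The first was on chromosome 11, where H3K27ac at 11268261 scored 727.4 after ENO1-IT1 siRNA and at 11268273 scored 484.8 after control siRNA. KAT7 scored 167.7 and 83.01 at 11268248 and 11268243 there, and the next H3K27ac summit was 314945 bp away after ENO1-IT1 siRNA and 315094 bp away after control siRNA. On chromosome 7, H3K27ac at 157254160 and 157254141 scored 554.1 after ENO1-IT1 siRNA and 390.4 after control siRNA, with the next summit 47767 and 47771 bp away. On chromosome 2, H3K27ac at 1218338 and 1218355 scored 515.8 and 454.4, with KAT7 scores of 188.3 and 60.2, and the next H3K27ac summits were 274804 and 477943 bp away. On chromosome 18, H3K27ac at 22613623 and 22613640 scored 462.5 and 388.5, with the next summits 606681 and 318705 bp away. The stretch from 2 to 500 kb away was thus empty in the ENO1-IT1 siRNA H3K27ac list but not in the control list. The site on chromosome 8, with H3K27ac at 22254011 and 22254006 scoring 384.4 and 346.2, had its next summits at 29093 and 28871 bp, and 42 ENO1-IT1 siRNA H3K27ac summits lay between 2 and 500 kb from it. Summits that were not sites also stood near the top of both H3K27ac lists, some of them above this last site.

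The lowest-scored sites looked different. The ENO1-IT1 siRNA KAT7 summit with the lowest score of all sites, 2.33, lay on chromosome X at 44732639. Control KAT7 scored 9.82 there, H3K27ac scored 16.2 after ENO1-IT1 siRNA and 8.57 after control siRNA, and other H3K27ac summits were 779 and 681 bp away. Of the 5 sites with the lowest ENO1-IT1 siRNA KAT7 scores, 3 had another H3K27ac summit within 2 kb in both lists and the one on chromosome 2 at 23608284 had one in the control list alone, at 393 bp. The site on chromosome 1 at 51984636 had none within 2 kb, with the next at 10690 and 10697 bp. Sites scoring under 20 in the ENO1-IT1 siRNA KAT7 list numbered 15 under 5, 26 from 5 to 10 and 58 from 10 to 20, so such weak KAT7 sites were a small part of the whole.

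The summits of a site lay closer together than the rule required. The 4 positions spanned a median of 20 bp (quartiles 11 and 30 bp), and at 312 sites (22.7%) all 4 lay within 10 bp. At 1 site all 4 were the same base. The median distance between the ENO1-IT1 siRNA and the control summit was 12 bp (95% interval 11 to 12) for KAT7 and 7 bp (7 to 8) for H3K27ac. Between KAT7 and H3K27ac it was 7 bp (6 to 7) after ENO1-IT1 siRNA and 11 bp (10 to 12) after control siRNA. These medians depend on the limit of 50 bp. With a limit of 500 bp they were 13 bp for KAT7 and 17 bp for H3K27ac between conditions, so that their order turned, and 15 and 24 bp between the marks after ENO1-IT1 siRNA and control siRNA. KAT7 and H3K27ac summits of the ENO1-IT1 siRNA cells were the same base at 79 sites, against 51 sites in control siRNA cells.

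**Figure D2:**
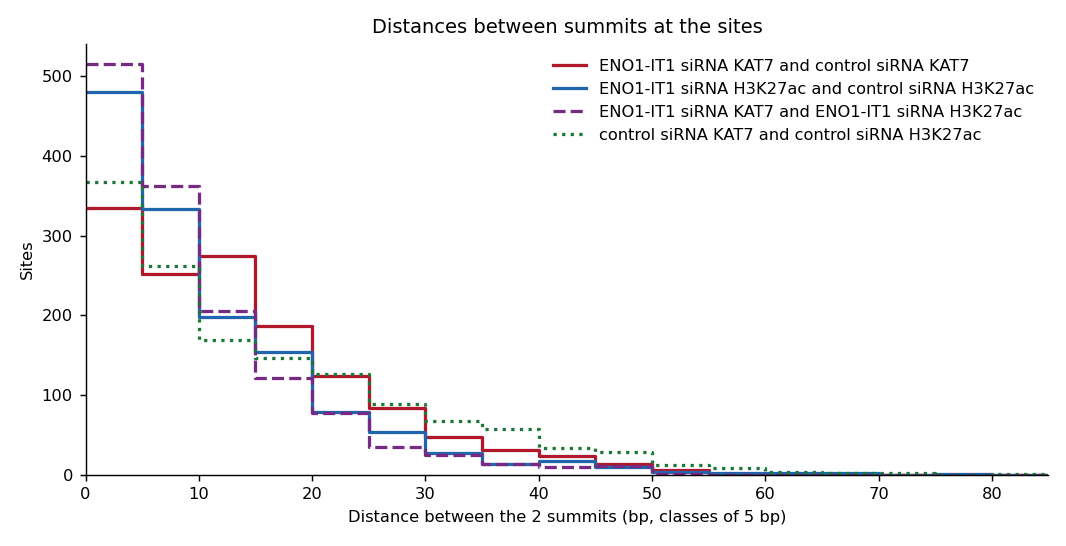
Number of sites by the distance between 2 of their summits, in classes of 5 bp, for KAT7 between conditions, H3K27ac between conditions, and KAT7 against H3K27ac within each condition. The rule limits distances from the ENO1-IT1 siRNA KAT7 summit to 50 bp; medians are 12, 7, 7 and 11 bp, and the curves for the pairs with a control KAT7 summit are the flatter ones.

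Under the limit of 50 bp, the control KAT7 summit was most often the one apart from the rest. It was the farthest from the median of the other 3 at 577 sites, compared with 210 for ENO1-IT1 siRNA KAT7, 252 for ENO1-IT1 siRNA H3K27ac and 253 for control H3K27ac, and 85 sites had a tie. The rule measures every distance from the ENO1-IT1 siRNA KAT7 summit and so favours a central place for it. The ENO1-IT1 siRNA KAT7 summit was closer to the ENO1-IT1 siRNA H3K27ac summit than to the control KAT7 summit at 842 sites and farther at 455. With a limit of 500 bp the medians of these distances were 15 and 13 bp, so their order depends on the limit. The control KAT7 summit was closer to the control H3K27ac summit than to the ENO1-IT1 siRNA KAT7 summit at 571 sites and farther at 709. The rule limits the distance between the KAT7 summits to 50 bp, and not the distance between the control summits. The distance between the KAT7 summits was smaller where the control KAT7 score was higher, with medians of 13, 12, 11 and 9 bp over 4 equal classes from the lowest to the highest score. H3K27ac gave no such order, with 7, 7, 7 and 7.5 bp over the classes of the ENO1-IT1 siRNA H3K27ac score. Summits showed no constant shift to one side. The median signed distance, ENO1-IT1 siRNA minus control, was 1 bp for KAT7 and 0 bp for H3K27ac.

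H3K27ac summits were found again at nearly the same base where KAT7 was listed, and less exactly elsewhere. The comparison used 4314 ENO1-IT1 siRNA H3K27ac summits that had a control H3K27ac summit within 50 bp and no KAT7 summit of either condition within 500 bp. The median distance between the H3K27ac summits of the 2 conditions was 7 bp (7 to 8) at the sites and 24 bp (24 to 25) at these, although the rule for sites allows larger H3K27ac distances. The rule also asks the H3K27ac summits of a site to lie near a KAT7 summit, which the other set does not. In the class of ENO1-IT1 siRNA H3K27ac scores from 20 to 50, the medians were 8 bp (7 to 9) over 343 sites and 23 bp (22 to 25) over 1106 summits without KAT7. The intervals overlapped only in the class of scores of 100 and over, which held 7 summits without KAT7.

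The same held when no limit of 50 bp was set on H3K27ac. Among 1996 ENO1-IT1 siRNA H3K27ac summits with KAT7 of both conditions within 50 bp, 1488 had a control H3K27ac summit within 500 bp, and at 92.7% of these (91.3 to 94.0%) it was within 50 bp. Among the 25747 with no KAT7 within 500 bp, 16250 had a control H3K27ac summit within 500 bp, and at 26.5% of these (25.9 to 27.2%) it was within 50 bp. These sets come from the same libraries, and the difference between them was not tested against replicates.

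KAT7 behaved otherwise. The comparison was with 3410 KAT7 positions listed in both conditions within 50 bp and without an H3K27ac summit of either condition within 500 bp. The median distance between the KAT7 summits of the 2 conditions was 12 bp (11 to 12) at the sites and 4 bp at these positions, with 46.0% and 74.3% within 10 bp. The positions without H3K27ac had lower scores, with a median percentile of 96.5 at the sites and 60.3 at these in the ENO1-IT1 siRNA list, and of 94.8 and 50.3 in the control list. The value of 50.3 is the mean rank of many summits tied at a score of 2.68, the median of the whole control KAT7 list. KAT7 summits were thus nearer to each other between conditions where H3K27ac was not listed.

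The H3K27ac summits of the sites mostly stood apart from other H3K27ac summits. Another ENO1-IT1 siRNA H3K27ac summit, more than 50 bp and at most 2 kb away, was listed at 5.16% (4.05 to 6.46%) of the sites and at 47.4% (46.8 to 48.0%) of the 30462 other ENO1-IT1 siRNA H3K27ac summits. In the control list the shares were 5.81% (4.63 to 7.18%) and 58.9% (58.3 to 59.5%). The nearest other summit of the same list was a median of 55.2 kb away at the sites and 2.36 kb at the others after ENO1-IT1 siRNA, and 63.8 and 1.23 kb after control siRNA. H3K27ac summits that were within 50 bp between conditions but had no KAT7 were not isolated in this way, with another ENO1-IT1 siRNA summit within 2 kb at 47.0% (45.5 to 48.5%). KAT7 positions of both conditions without H3K27ac within 500 bp also had few H3K27ac summits within 2 kb. The shares were 3.61% (3.01 to 4.29%) for ENO1-IT1 siRNA and 3.43% (2.85 to 4.10%) for control H3K27ac. Sparse H3K27ac nearby was thus not particular to the sites. For KAT7 itself the sites were like the rest of the list, with the nearest other ENO1-IT1 siRNA KAT7 summit a median of 33.7 kb away at the sites and 33.9 kb at the others.

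The isolation was present at like H3K27ac scores. After ENO1-IT1 siRNA, in the class of scores from 10 to 20, another summit within 2 kb was listed at 6.92% (4.75 to 9.68%) of 448 sites and 44.1% (42.9 to 45.3%) of 6812 others. For scores from 50 to 100 the shares were 2.11% (0.256 to 7.40%) of 95 sites and 23.3% (19.1 to 27.95%) of 373 others. For scores of 100 and over they were 4.35% (0.906 to 12.2%) of 69 sites and 19.1% (9.15 to 33.3%) of 47 others, with intervals that overlap. In the control list that top class gave 3.51% (0.428 to 12.1%) of 57 sites and 19.4% (7.45 to 37.5%) of 31 others.

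**Figure D3:**
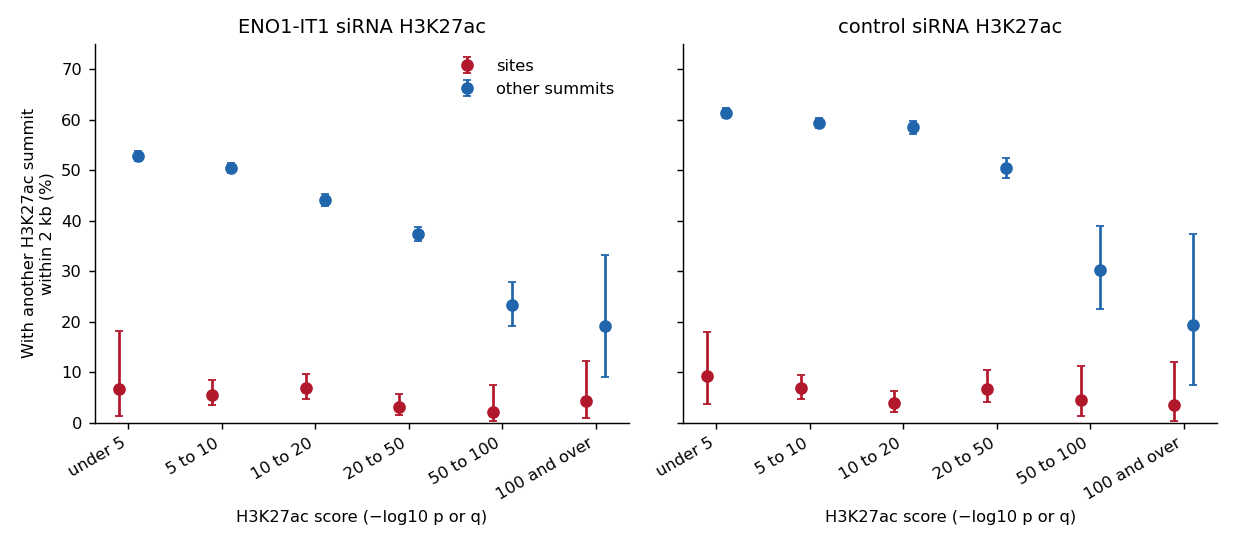
Share of H3K27ac summits with another summit of the same list more than 50 bp and at most 2 kb away, by class of H3K27ac score, for summits of the sites and for all other summits, with exact 95% intervals, after ENO1-IT1 siRNA and after control siRNA. The sites stay between 2.11% and 9.21% in every class, and the other summits between 19.1% and 61.3%.

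The wider neighbourhood held fewer H3K27ac summits too. Between 2 and 500 kb from the ENO1-IT1 siRNA H3K27ac summit, the sites had a median of 10 other summits (quartiles 3 and 19) and the remaining summits a median of 22 (11 and 40). At 115 sites (8.35%) this stretch held none, against 235 of the 30462 others (0.771%). In the control list the medians were 9 at the sites and 21 at the others, and 128 sites (9.30%) had none against 226 others (0.806%). By score class, the sites had the lower median in every class of both lists except the top class of the control list. There, at scores of 100 and over, the median was 11 at 57 sites and 9 at 31 others, and 8.77% and 12.9% had none. KAT7 positions of both conditions without H3K27ac had a still lower median, 6 summits.

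The sites were spread along the chromosomes at wide intervals. Neighbouring sites were a median of 1278 kb apart, compared with 74.7 kb between the other ENO1-IT1 siRNA KAT7 summits and 14.96 kb between the other ENO1-IT1 siRNA H3K27ac summits. There are far more of the other summits, so shorter gaps among them are given in advance. Over chromosomes 1 to 22 and X the number of sites per Mb, counted up to the highest position listed, ran from 0.339 on chromosome 13 to 0.744 on chromosome 19, a ratio of 2.20. For the other ENO1-IT1 siRNA H3K27ac summits it ran from 4.57 to 33.8 per Mb on the same chromosomes, a ratio of 7.39. For the other ENO1-IT1 siRNA KAT7 summits it ran from 5.71 to 14.02 per Mb, again on chromosomes 13 and 19, a ratio of 2.46, so the even spread was not particular to the sites.

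The share of sites on a chromosome followed its extent more than its H3K27ac content, as did that of the other KAT7 summits. Over these 23 chromosomes, the correlation of the share of sites with the chromosome's extent had a Pearson r of 0.92 and a Spearman rho of 0.92. For the other ENO1-IT1 siRNA KAT7 summits both were 0.94, and for the other ENO1-IT1 siRNA H3K27ac summits they were 0.60 and 0.50. The share of sites and that of the other ENO1-IT1 siRNA H3K27ac summits had an r of 0.68 and a rho of 0.59. With the number of protein-coding genes that RefSeq gives per chromosome (GRCh38.p14), r was 0.71 for the sites, 0.72 for the other ENO1-IT1 siRNA KAT7 summits and 0.95 for the other H3K27ac summits. With the share of the other ENO1-IT1 siRNA KAT7 summits, r was 0.95 for the sites. Chromosomes of the same libraries are not replicates, and these values are descriptions.

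On chromosomes 17, 19 and X the share of sites was nearer to the other KAT7 summits than to the other H3K27ac summits. This was not so on every chromosome. Chromosome 11 held 4.94% of the sites, 4.47% of the other ENO1-IT1 siRNA KAT7 summits and 4.93% of the other ENO1-IT1 siRNA H3K27ac summits. On chromosome 6 the shares were 5.88%, 5.25% and 5.49%, in the same order. Chromosome 19, known to be rich in genes, held 44 sites, 3.20% of them (2.33 to 4.27%), with 3.57% of the other ENO1-IT1 siRNA KAT7 summits and 6.56% of the other ENO1-IT1 siRNA H3K27ac summits. Chromosome 17, also rich in genes, held 37 sites (2.69%, 1.90 to 3.68%), with 3.28% of these KAT7 and 6.67% of these H3K27ac summits. Chromosome X held 83 sites (6.03%, 4.83 to 7.42%), with 5.36% of these KAT7 and 2.68% of these H3K27ac summits. KAT7 positions of both conditions without H3K27ac had 2.99% on chromosome 19 and 6.16% on chromosome X, so this spread was shared with KAT7 summits off H3K27ac. Of all ENO1-IT1 siRNA H3K27ac summits on chromosome X, 9.24% (7.43 to 11.3%) belonged to a site, compared with 2.15% (1.57 to 2.88%) on chromosome 19 and 1.79% (1.26 to 2.46%) on chromosome 17. Sites were not gathered at chromosome ends. Within 5 Mb of the outermost summit listed lay 14.1% (12.3 to 16.0%) of the sites, 13.5% of the other ENO1-IT1 siRNA KAT7 summits and 14.5% of the other ENO1-IT1 siRNA H3K27ac summits.

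**Figure D4:**
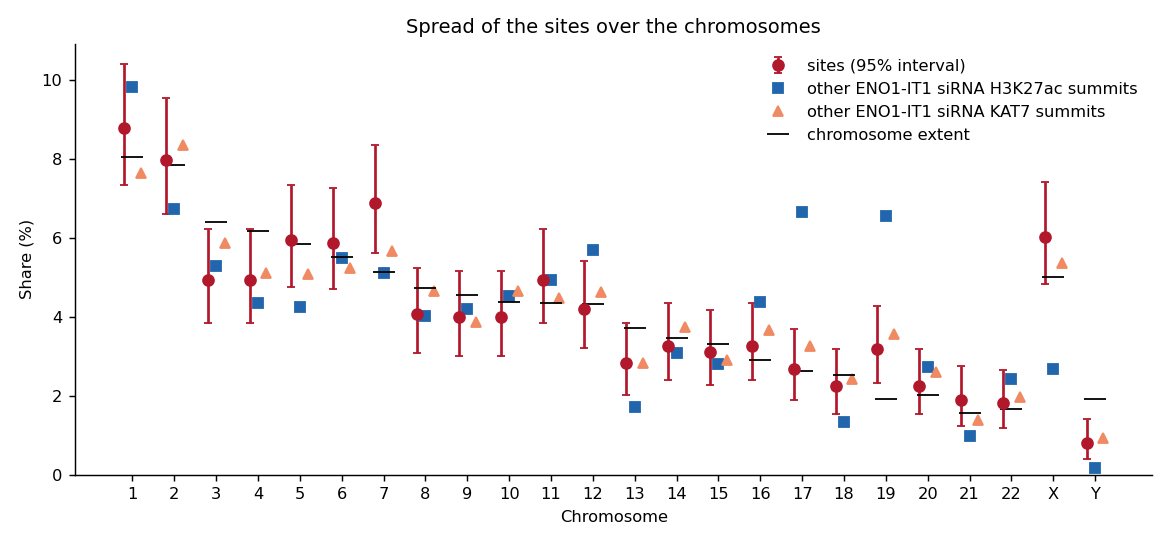
Share of the 1377 sites on each chromosome with exact 95% intervals, beside the share of the other ENO1-IT1 siRNA H3K27ac and KAT7 summits and the chromosome's share of the summed extents. On chromosomes 17 and 19 the sites (2.69% and 3.20%) lie below the other H3K27ac summits (6.67% and 6.56%), and on chromosome X (6.03%) above them (2.68%).

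Sites were counted in 4 stretches known for gene clusters, beside 0.445 sites per Mb over all chromosomes. On chromosome 6 from 28 to 34 Mb, where general knowledge of the hg19 map places the major histocompatibility complex, there were 2 sites (0.333 per Mb) and 255 other ENO1-IT1 siRNA H3K27ac summits. From 26 to 28 Mb on the same chromosome, the part that holds the large cluster of replication-dependent histone genes, there were 4 sites (2 per Mb) and 131 others. On chromosome 19 from 20 to 24 Mb, a part known for zinc finger genes, there were 4 sites (1 per Mb) and 11 other H3K27ac summits, and from 52 to 59 Mb, 6 sites (0.857 per Mb) and 162 others. Sites are drawn from the ENO1-IT1 siRNA KAT7 list, and its other summits in these stretches numbered 60, 61, 18 and 83, in the order given. The whole list held 1377 sites and 23234 other summits. With so few sites, in stretches of unequal length, whether their number follows that of the H3K27ac or the KAT7 summits cannot be told. No hg19 gene annotation was used, so sites were not assigned to promoters, exons or introns, and these stretches are whole megabases. Near ENO1, which the same general knowledge places on chromosome 1, the control list has an H3K27ac pair at 8937810 and 8935949 without an ENO1-IT1 siRNA H3K27ac summit within 500 bp. These 2 summits lay 182376 and 184237 bp from the nearest site. Their scores were 191.3 and 112.0, and only 88 of the 29429 control H3K27ac summits scored 100 or over. Over all scores of the ENO1-IT1 siRNA H3K27ac list, summits of 1 condition alone were common, which does not show how common they are at such high scores. Of the 25747 ENO1-IT1 siRNA H3K27ac summits without KAT7 within 500 bp, 63.1% had a control H3K27ac summit within 500 bp and the rest had none. The matching share of the control list was not computed, and no change at ENO1 is read from 1 library per condition.

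The largest cluster of sites was a regular array on chromosome 1. With sites at most 10 kb apart joined, 26 of the 1377 sites fell into 11 clusters, and 10 of these were pairs. The remaining one held 6 sites, from 228750529 to 228775136. The gaps between them were 2260, 2229, 4427, 8962 and 6729 bp, which are 1, 1, 2, 4 and 3 times a unit of 2214 to 2260 bp. KAT7 scores at these 6 sites ran from 28.9 to 40.4 after ENO1-IT1 siRNA and from 1.67 to 5.65 after control siRNA. H3K27ac scores ran from 4.13 to 10.2 after ENO1-IT1 siRNA and from 3.97 to 11.1 after control siRNA.

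The period showed in each list, but the lists are not separate here. By the rule, each has a summit within 50 bp at each of the 6 sites. From 5 kb before to 5 kb after the cluster, the ENO1-IT1 siRNA KAT7 list held 15 summits, and 13 of the 14 gaps between neighbours were within 100 bp of 2229 bp. The control KAT7 list held 11 summits with 7 such gaps of 10, the ENO1-IT1 siRNA H3K27ac list 13 summits with 7 of 12, and the control H3K27ac list 10 summits with 6 of 9. The medians of these gaps were 2229, 2241, 2243 and 2234.5 bp, and they lie near 2229 bp because only gaps within 100 bp of it entered. The input list held no summit there. General knowledge of the map places the tandem genes for 5S ribosomal RNA, which RNA polymerase III transcribes, in this part of chromosome 1, with a repeat unit of about this length. RefSeq (GRCh38.p14) lists 17 genes named RNA5S with a number, all on chromosome 1. Copies of such a repeat are nearly identical, how the authors' alignment placed reads among them is not given in the sources used here, and the summits were not assigned to genes.

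**Figure D5:**
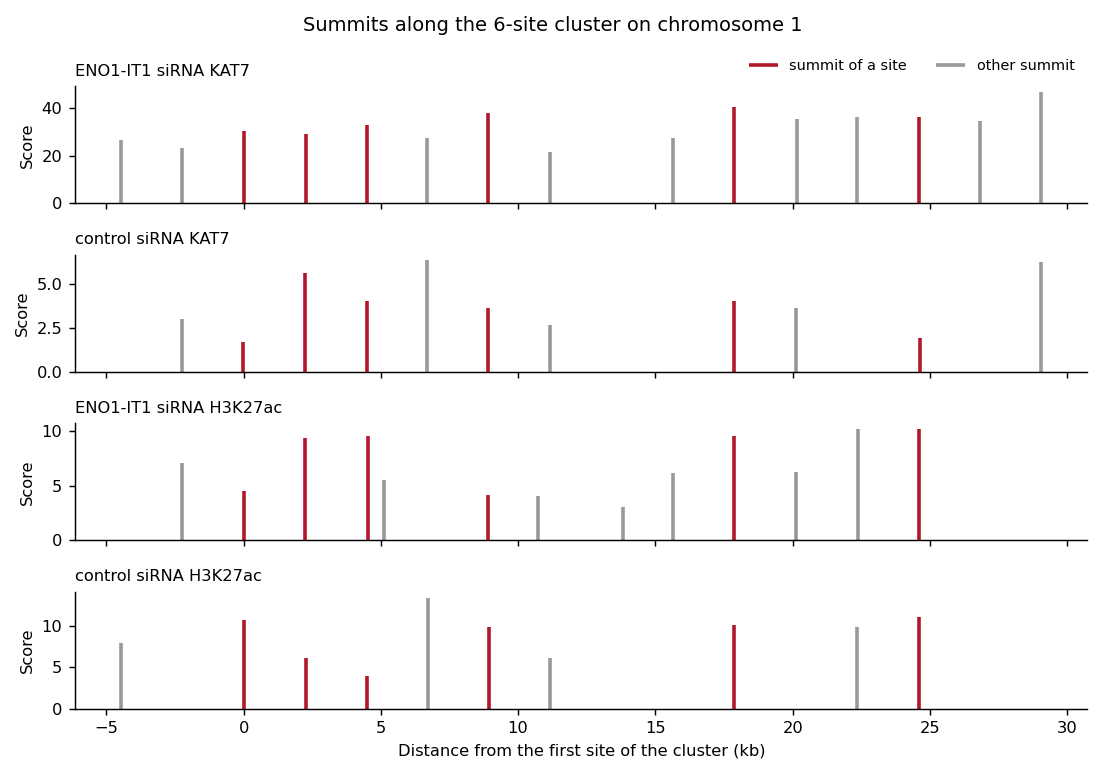
Score (-log10 p or q) of each summit along the 6-site cluster on chromosome 1, by distance from its first site in kb, in the 4 immunoprecipitated lists, with summits of the sites in red and other summits in grey. Many neighbouring summits lie about 2229 bp apart in each list, and the rule itself places a summit of each list at the 6 sites. For KAT7 there are 15 summits after ENO1-IT1 siRNA and 11 after control siRNA. The vertical scales differ between lists and scores are not comparable across them.

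Of the pairs, 3 were closer together than the units of the array. On chromosome 21 the sites at 45942960 and 45943694 were 734 bp apart, the shortest gap of all, with KAT7 scores of 21.1 and 35.3 after ENO1-IT1 siRNA and 2.68 and 7.78 after control siRNA. On chromosome 20 the sites at 61084648 and 61085687 were 1039 bp apart, and a pair on chromosome 5 was 1234 bp apart. The site at 61085687 was the stronger, with KAT7 scores of 131.4 after ENO1-IT1 siRNA and 16.7 after control siRNA and H3K27ac scores of 59.3 and 64.3.

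Sites of strong and weak H3K27ac differed in KAT7 rank, and the other measures lay closer together. The 368 sites among the highest-scored 10% of ENO1-IT1 siRNA H3K27ac had a median ENO1-IT1 siRNA KAT7 score of 106.0, and the 251 sites below the H3K27ac median one of 38.2. In the control KAT7 list 89.9% of the first and 36.7% of the second were among the highest-scored 10%. The medians of their spans were 24 and 20 bp. Another ENO1-IT1 siRNA H3K27ac summit lay within 2 kb at 2.72% (1.31 to 4.94%) and 6.77% (3.99 to 10.6%), with intervals that overlap, and 2 to 500 kb away there was a median of 11 and 10 summits. Both kinds of site were thus isolated.

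Input DNA had a summit near 3 of the sites. These 3 are 0.218% of the sites (0.0450 to 0.635%), and over the whole ENO1-IT1 siRNA KAT7 list 0.349% of summits had an input summit within 1 kb. The share among other ENO1-IT1 siRNA H3K27ac summits was 0.131% (0.0938 to 0.179%) and among other control H3K27ac summits 0.143% (0.102 to 0.194%), both within the interval of the sites. Among other control KAT7 summits it was 0.0339% (0.0243 to 0.0459%), a value below that interval. The first of these sites, on chromosome 1, was at 249240257, 3 bp from its input summit. The second, on chromosome 2, was at 2299458 and 79 bp from it, and the third, on chromosome 22, at 25489769 and 33 bp from it. Their KAT7 scores were 99.9, 87.0 and 87.0 after ENO1-IT1 siRNA and 11.5, 14.4 and 7.94 after control siRNA. The input list has 945 summits and a lowest score of 5.24, and whether input served as the control in peak calling is not given in the sources used here.

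Most strong KAT7 summits that were not sites lacked a single list within 50 bp. Of the 1000 highest-scored ENO1-IT1 siRNA KAT7 summits, 229 were not sites. Control KAT7 was the only list missing at 49 of them, ENO1-IT1 siRNA H3K27ac at 40 and control H3K27ac at 54. No summit within 500 bp was listed for control KAT7 at 25, for ENO1-IT1 siRNA H3K27ac at 48 and for control H3K27ac at 71. The remaining 771 of the 1000 were sites, with KAT7 in control siRNA cells and H3K27ac in both conditions within 50 bp.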

How the data were processed

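HCT116 ChIP-seq was analysed from 5 deposited summit lists, 1 per sample, grouped by sample title. The submitters' processing notes name Bowtie, MACS2 and hg19. Versions, options and the control used in calling were not stated. Peak names in the files carry a tag for duplicate removal. Scores were deposited by the authors as -log10 p or q values, and which of these was not stated. The lists hold no read counts, so the depth of each library is unknown and was not normalized.

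Positions are the third column, counted from 1. Summits were matched to the nearest summit of another list. Python 3.11.15, numpy 2.4.6, pandas 2.3.3, SciPy 1.17.1 and matplotlib 3.10.9 were used. The site search was tested on simulated lists and recovered 1000 of 1000 planted sites with 0 of 2000 decoys. Alternatives changed the distances, score minimum, chromosomes, starting list and windows. Named sites were the 10 highest by ENO1-IT1 siRNA KAT7 score, the 5 highest of each other list, the 5 lowest, 3 clusters (the largest and, among the equal pairs, the 2 shortest), those near input and those at the limit; the text describes part of them. Members and lists were chosen with earlier results of these data known. No hg19 genome or annotation was used, so no sequence is shown and no site was assigned to a gene. RefSeq (GRCh38.p14) gave only gene names and numbers per chromosome.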

Additional observations from a re-analysis of the deposited data

How the results depend on the processing

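No paired analysis was possible because each group holds 1 library and no test was made. Libraries could not be left out in turn, since each list is needed to form a site. Of 84 alternative values of the main results, 46 stayed within the counting interval or, for counts, within 1.5 times, and 38 moved. Starting from another list gave 1345 to 1385 sites. Leaving out chromosome Y or the sites near input moved none of the main results. With summits within 25, 100, 200 and 500 bp, sites took 4.40%, 6.55%, 8.196% and 10.3% of the ENO1-IT1 siRNA KAT7 list and 59.9%, 84.0%, 88.9% and 89.6% of its 1000 strongest summits. The median KAT7 distance was 10 bp within 25 bp and 13 bp within 500 bp. The H3K27ac distance moved more, to 12 and 17 bp within 200 and 500 bp, and KAT7 to H3K27ac to 15 bp after ENO1-IT1 siRNA and 24 bp in control within 500 bp. The median percentile was 96.1, 95.1 and 92.9 within 100, 200 and 500 bp. Within 200 bp, 0.793% of sites were near input, 8.73% had another H3K27ac summit within 2 kb, 4.41% lay on chromosome 19 and there were 27 clusters. Within 500 bp there were 2530 sites, and these values were 0.672%, 13.4%, 5.30% and 132 clusters. Isolation from other H3K27ac thus weakened at wider distances. The share on chromosome 19, which was low beside that of the other H3K27ac summits, rose. With scores of at least 5 in each list there were 914 sites, 4.59% of the list and 64.2% of its 1000 strongest, a median percentile of 97.1, another H3K27ac summit at 3.28% and 4 clusters. With scores of at least 10 there were 395 sites, 4.29% and 35.1%, a median percentile of 97.1, another summit at 1.27% and 0 clusters. The same minimums gave 5.66% and 11.7% of the control KAT7 list. A score minimum also shortens the lists. Another H3K27ac summit lay within 1000 bp at 2.25% and within 5000 bp at 9.44% of sites, and joining sites over 5 or 25 kb gave 6 and 27 clusters. The position of genes was not analysed, and unknown depth limits every count of summits.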
